A study of Mus musculus with 8 samples.

Results

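The 40 genes described here encode the machinery of G2 and mitosis, namely the mitotic cyclins and CDK1, mitotic kinases, checkpoint and anaphase-promoting proteins, kinetochore subunits, spindle kinesins and cytokinesis factors. They are named genes of cell division, and the rule that lists them uses no measured value. The 40 were, however, chosen with earlier results of these data known. Their shares beside those of all tested genes are therefore a description and not a test. All 40 were found by symbol among the 54838 genes of the count table, and all 40 passed the filter on low counts, as did 10911 genes in total. RNA was profiled in sorted AML cells of C57BL/6 background with the genotype RUNX1-RUNX1T1, a leukaemogenic fusion that every sample carried. The cells had been transplanted into Ptprca recipients that were, per the labels, sublethally irradiated. The study's methods name irradiation for its other leukaemia models and not for this one. Vehicle was given to one group (n = 4 samples) and AG636 at 100 mg/kg b.i.d. by oral gavage to the other (n = 4 samples). AG636 inhibits DHODH, the mitochondrial enzyme that supplies pyrimidines for DNA and RNA synthesis. According to the study, treatment in this model lasted a single day and the cells were sorted for the immature marker cKit. The labels do not say which samples are separate mice or whether a sample came from bone marrow or spleen, and the study gives fewer mice than there are samples. The p-values therefore measure only the spread between these samples.

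Each sample held 6120030 to 7162036 counts. Vehicle 4 stood apart from the other Vehicle samples. Its counts differed from theirs by a chi-square statistic of 9.2 to 13.1 per degree of freedom, against 3.88 to 4.55 among Vehicle 1 to 3, while pairs of AG636 samples gave 14.2 to 25.4. Results are for that reason also given without Vehicle 4. CPM here are counts scaled to the adjusted total of the genes that passed the filter. Of the markers of immature myeloid cells, Kit (153 to 252 CPM) and Myb (388 to 717 CPM) were present in every sample. The granule genes Mpo, Elane, Prtn3 and Ctsg, however, did not exceed 33 counts in any sample and Flt3 did not exceed 5. Ptprc, the gene of CD45, did not exceed 64. The summed level of the 9 markers was 566 to 705 CPM in Vehicle and 648 to 955 CPM in AG636. None of the 6 immature myeloid markers tested was called by limma-voom, and 2 had an unadjusted p under 0.05 in that fit. Erythroid genes such as Car1 (2427 to 4144 CPM) and Klf1 (112 to 239 CPM) were present in all samples, at a summed level of 5171 to 9305 CPM in Vehicle and 8017 to 10038 CPM in AG636 over 12 genes, of which Hbb-bt was called higher, and Vehicle 4 had the lowest sum. The summed markers of granulocytes (46.1 to 109 CPM in Vehicle and 17 to 215 CPM in AG636), monocytes and macrophages (17.3 to 22.9 and 21.5 to 30.5 CPM), B cells (16.3 to 38.5 and 25.7 to 109 CPM, Cd79a called higher), T and NK cells (3.5 to 9.32 and 4.95 to 20.7 CPM) and megakaryocytes (12 to 18.1 and 13.1 to 61 CPM, Gp1bb at 0) were low. The part of these cells in the results was not tested.

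A cell enters mitosis when cyclin B binds CDK1 and the phosphatases of the CDC25 family remove the inhibitory phosphates of the kinase. Aurora and Polo kinases then build the spindle, kinetochores attach chromosomes to it, and a checkpoint holds the anaphase-promoting complex until all are attached, after which securin and cyclin B are destroyed and the cell divides. Transcripts of these genes are low in G1, rise through S phase and peak in G2 and M, so their level in a bulk sample follows both the share of cells in G2 and M and the RNA in each cell, which cannot be told apart here.

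To determine how a day of DHODH inhibition affected this programme, AG636 was compared with Vehicle in 1 limma-voom fit of all tested genes. The log2 fold change was positive for all 40 G2 and mitosis genes, whereas 49.4% of all tested genes had a positive value. The changes were small, from 0.04 to 0.59 with SEs of 0.09 to 0.20 and a median of 0.32, a ratio of 1.25, against a median of −0.006 over all tested genes. By Benjamini-Hochberg adjustment over 10911 genes, 16 of 40 genes (40%) were past the threshold of 0.05 and higher in AG636, where the share among all tested genes was 5.47%. By limma-voom, edgeR and DESeq2 0 were called lower, where the share among all tested genes by limma-voom was 8.49%. At an unadjusted p under 0.05 the count was 25, all of them higher. The share among all tested genes at that threshold was not determined. The balance over all genes depended on scaling, with 597 of 1523 calls higher under TMM factors and 918 of 1489 with library size alone, under which 19 of the 40 genes were called higher. In 12 of 40 genes (30%) every AG636 sample lay above every Vehicle sample, against 9.35% of all tested genes, and 11 of these 12 were among the called genes. The genes ranged in depth from 66 to 9485 counts in a sample.

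The number of called genes depended on single samples, whereas over 18 alternative fits the sign changed for Aurkb and Spc24 only. Without Vehicle 4, 23 of 40 genes were called higher, where 3.77% of all genes tested in that fit were, and the median log2 fold change was 0.43. Without Vehicle 1, Vehicle 2 or Vehicle 3 the counts were 3, 4 and 3, where 2.36%, 2.78% and 1.99% of all genes tested were called higher. Without AG636 1 or AG636 2 they were 5 and 8, where 3.65% and 4.4% of all genes tested were. The medians in these fits lay between 0.26 and 0.32. Cenpf, Pttg1 and Nusap1 were past the threshold in all 18 alternative fits, and the other 13 called genes were lost in at least 1 of them. The call was lost in 9 fits for Kif4, 8 for Tpx2 and Hmmr, and 7 for Cdca8, Prc1 and Ndc80. It was lost in 6 for Plk1, 5 for Ccnb1 and Cenpa, 4 for Aurka and Cdc20, 3 for Ccnb2 and 2 for Spc25. As the plot of calls by setting shows, changes of test and scaling moved the count less than the samples did.

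**Figure D1:**
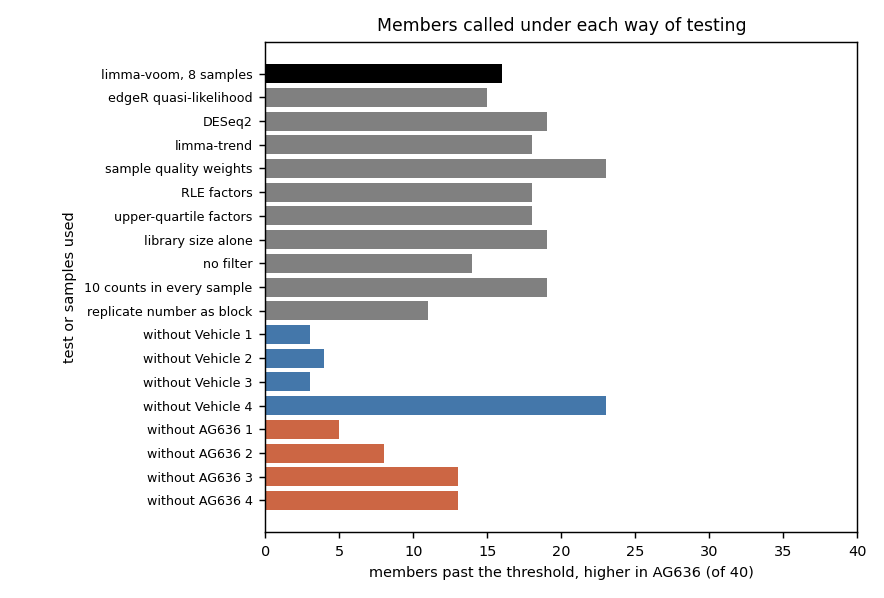
Number of the 40 G2 and mitosis genes past an adjusted p of 0.05 and higher in AG636 (horizontal axis, 0 to 40) for the limma-voom fit of 8 samples (black), other tests, scalings and filters and a fit with the replicate number as a block (grey) and fits that leave out 1 Vehicle sample (blue) or 1 AG636 sample (orange). The count was 16 in the fit of 8 samples, 11 to 23 under the grey settings and 3 to 23 when 1 sample was left out.

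Vehicle 4 had the highest level of the Vehicle group in 38 of 40 genes and lay a median of 0.37 log2 units above the median of the other Vehicle samples. Relative to the mean of log2 CPM in the Vehicle group, the median over the 40 genes was −0.07, −0.01, −0.17 and 0.27 in Vehicle 1 to 4 and 0.41, 0.32, 0.28 and 0.24 in AG636 1 to 4. Vehicle 4 thus lay at the level of AG636 3 and AG636 4. The summed level gave the same order within each group, at 7336, 7662, 6812 and 9059 CPM in Vehicle 1 to 4 and 10436, 9725, 9213 and 9119 CPM in AG636 1 to 4. AG636 1 was the highest AG636 sample in 25 of 40 genes. Against Vehicle 1 to 3 alone, every AG636 sample was above each Vehicle sample in 33 of 40 genes. That comparison leaves out the Vehicle sample that was highest in 38 of 40 genes. The share of all tested genes in that comparison was not determined. The plot of levels in each sample marks Vehicle 4 and AG636 1.

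**Figure D2:**
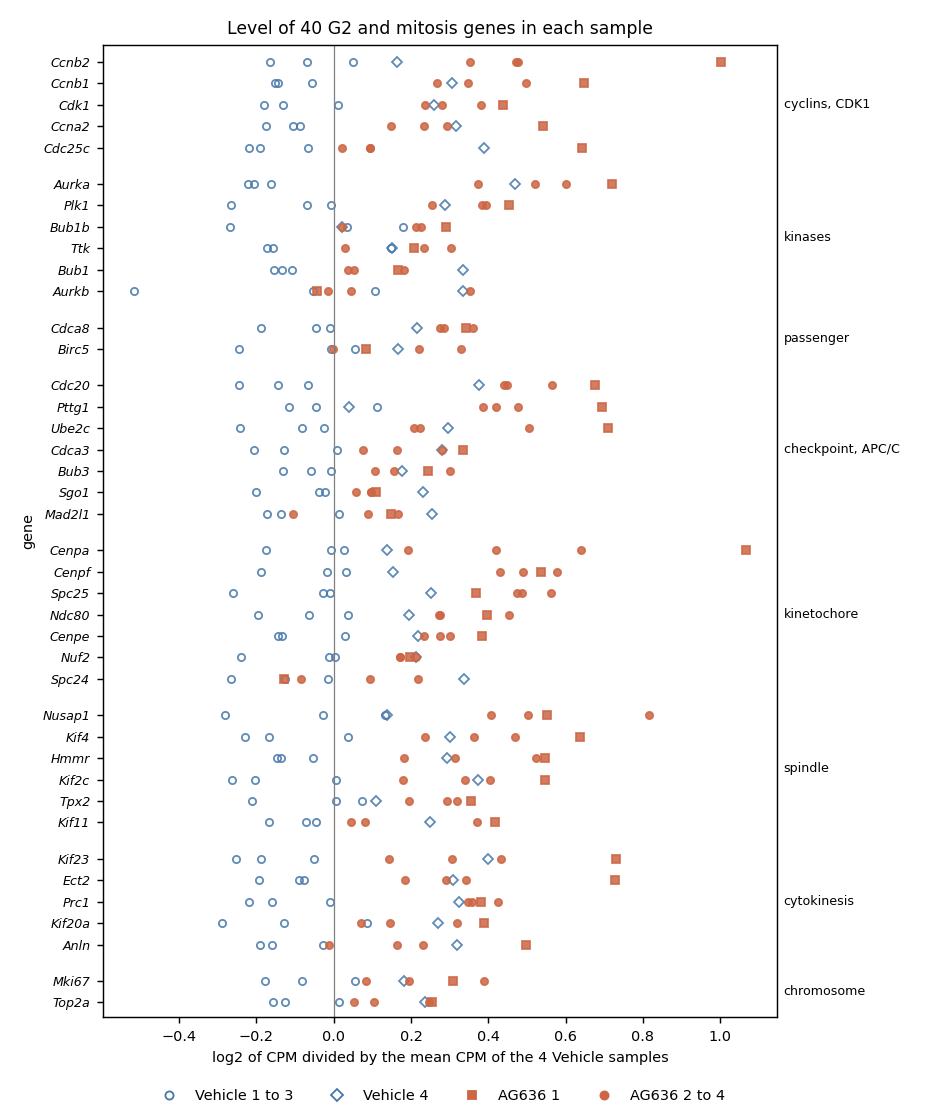
Level of each of the 40 genes (rows, grouped by role) in each sample, as log2 of CPM divided by the mean CPM of the 4 Vehicle samples (horizontal axis). Open blue symbols are Vehicle samples, with Vehicle 4 as a diamond, and filled orange symbols are AG636 samples, with AG636 1 as a square. Vehicle 4 is the highest Vehicle sample in 38 genes and AG636 1 the highest AG636 sample in 25 genes.

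The promoters of the genes with a RefSeq window (250 bases before to 50 after the gene start, build GRCm38.p6) were searched on both strands for the letters of a pair of elements that are known from genes of this kind. The cell cycle genes homology region (CHR), with the letters TTTGAA, is bound by the MuvB core, which represses in the DREAM complex and activates when joined by B-MYB and FOXM1, and the CCAAT box is bound by NF-Y. A window was found for 34 of 40 genes and not for Ccna2, Cdc25c, Aurkb, Kif20a, Tpx2 and Spc24. TTTGAA was present in 25 of 34 genes (73.5%) and in 20.2% of 27025 genes with a window. CCAAT was present in 26 of 34 (76.5%) and in 41.1% of all genes. Both were present in 22 of 34 (64.7%) and in 8.97% of all genes. Within 50 bases on either side of the gene start TTTGAA was found in 23 of 34 genes (67.6%) and in 5.72% of all genes, a narrower window that was chosen after the positions had been seen. Called and uncalled genes are given side by side, with no test. TTTGAA was in 12 of 15 called (80%) and 13 of 19 uncalled genes (68.4%), and both motifs were in 11 of 15 (73.3%) and 11 of 19 (57.9%). In these windows 1 TTTGAA and 1 CCAAT match shared bases, in Cdca8, as did 1 pair of CCAAT matches in Ube2c. The gene start here is that of RefSeq, which lay within 50 bases of the outermost start in the count table for 25 of 34 genes and farther from it for 9 (Bub3, Ccnb1, Cdca3, Cdca8, Cenpa, Kif2c, Kif4, Mad2l1 and Pttg1), whose windows need not lie before the outermost start. A match is a description of the letters and not a site shown to be used.

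The following stretches run from 110 bases before to 30 bases after the RefSeq gene start, 5′ to 3′ on the strand of the gene, and show how the letters lie in called genes of different roles. Capitals mark TTTGAA and CCAAT or, in Cenpa, its reverse complement ATTGG. The last stretch, of Nusap1, is shown because its window held neither. The RefSeq start of Cenpa (position 30666886) lies 109 bases inside the gene as the count table gives it, and the others lie within 9 bases of the start in the table.
Cenpf, chr1:189688057-189688196, minus strand: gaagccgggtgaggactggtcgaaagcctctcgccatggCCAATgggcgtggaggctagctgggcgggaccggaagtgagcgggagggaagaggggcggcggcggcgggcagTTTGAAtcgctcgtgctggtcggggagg
Ccnb2, chr9:70421525-70421664, minus strand: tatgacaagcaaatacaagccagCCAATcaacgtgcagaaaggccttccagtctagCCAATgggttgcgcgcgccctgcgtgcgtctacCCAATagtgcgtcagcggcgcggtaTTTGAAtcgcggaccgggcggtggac
Cdc20, chr4:118437314-118437453, minus strand: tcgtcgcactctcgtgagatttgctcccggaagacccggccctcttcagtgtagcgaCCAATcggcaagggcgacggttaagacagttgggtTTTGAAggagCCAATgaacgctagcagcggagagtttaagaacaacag
Cenpa, chr5:30666776-30666915, plus strand: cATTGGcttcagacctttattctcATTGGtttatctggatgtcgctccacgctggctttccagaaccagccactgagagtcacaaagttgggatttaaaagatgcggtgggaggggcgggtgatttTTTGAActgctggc
Prc1, chr7:80294341-80294480, plus strand: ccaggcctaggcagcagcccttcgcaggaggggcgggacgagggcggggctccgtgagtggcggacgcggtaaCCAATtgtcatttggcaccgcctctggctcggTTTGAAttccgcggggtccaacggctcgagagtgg
Nusap1, chr2:119618188-119618327, plus strand: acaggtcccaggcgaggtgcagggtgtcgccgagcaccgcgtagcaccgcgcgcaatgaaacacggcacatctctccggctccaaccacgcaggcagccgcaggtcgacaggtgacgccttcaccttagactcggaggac
In Cenpf and Ccnb2 the first base of TTTGAA lay 3 and 5 bases into the transcript, in Cenpa 17 bases into it, and in Cdc20 and Prc1 it lay at −18 and −5 from the start. The nearest CCAAT before the TTTGAA began at −71 in Cenpf, −21 in Ccnb2, −53 in Cdc20, −86 in Cenpa and −37 in Prc1. Of the 3 genes called under every alternative fit, Cenpf held both motifs and the windows of Nusap1 and Pttg1 held neither. The RefSeq start of Pttg1 lies 270 bases inside the gene as the count table gives it, so its window does not cover the bases before that outer start.

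**Figure D3:**
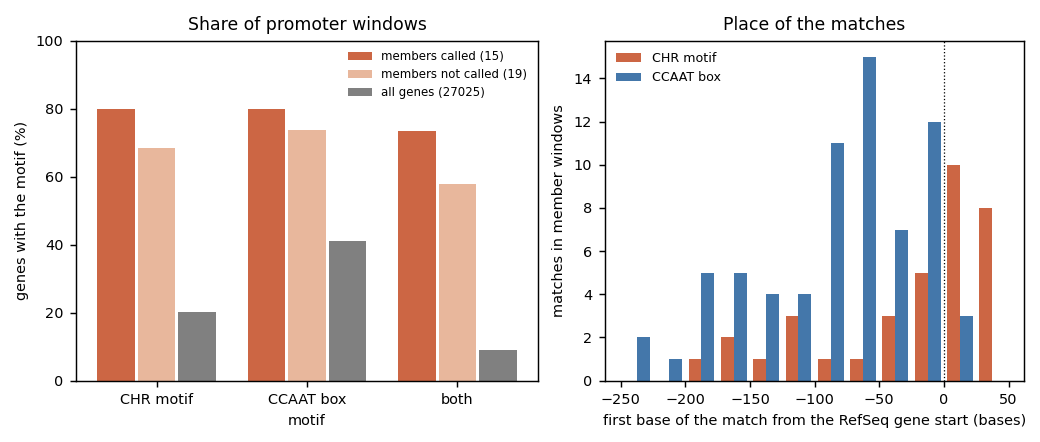
Left, share of genes (vertical axis, %) whose promoter window held the CHR letters, the CCAAT letters or both, for 15 called members, 19 uncalled members and 27025 genes with a window. Right, number of matches in the members' windows (vertical axis) by distance of the first base from the gene start in bins of 25 bases (horizontal axis). Matches to the CHR letters were most frequent just after the gene start and CCAAT matches before it. Bub3, Ect2 and Prc1 have a pair of overlapping windows each, whose matches are counted in both.

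The cyclins that drive mitotic entry were examined first. Ccnb2 (ENSMUSG00000032218, chr9:70407692-70421547, - strand), a mitotic cyclin, was at 218, 188, 201 and 236 CPM in Vehicle 1 to 4 and 422, 292, 293 and 269 CPM in AG636 1 to 4. The groups did not overlap, and AG636 1 was well above the other samples. The means were 211 ± 20.8 CPM in Vehicle and 319 ± 69.4 CPM in AG636 (SD, n = 4 each), a log2 fold change of 0.58, with an SE of 0.14 and an adjusted p of 0.0198. Ccnb1 (ENSMUSG00000041431, chr13:100778650-100786570, - strand), the main partner of CDK1 at entry into mitosis, was at 175, 186, 174 and 239 CPM in Vehicle 1 to 4 and 303, 273, 233 and 246 CPM in AG636 1 to 4. Vehicle 4 exceeded AG636 3, so the groups overlapped. Its log2 fold change was 0.45, with an SE of 0.12 and an adjusted p of 0.0322. Without Vehicle 4 it was 0.58 (adjusted p = 0.0149). Ccnb1 lost the call in 5 of 18 alternative fits, among them those without Vehicle 1, Vehicle 2 or Vehicle 3. Near-identical copies of its 3′ end (Ccnb1-ps, Gm12856 and Gm8416) held at most 5 counts each over all samples. The other 3 genes of this group were not called, with log2 fold changes of 0.35 for Cdk1 (adjusted p = 0.0507), 0.32 for Ccna2, which acts from S phase onwards, and 0.23 for Cdc25c, the phosphatase that activates CDK1. Cdk1 was the gene closest to the threshold among those not called.

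Of the 6 mitotic kinases 2 were called. Aurka (ENSMUSG00000027496, chr2:172356190-172370535, - strand), which matures centrosomes and the spindle, was at 59.4, 61.9, 60 and 95.8 CPM in Vehicle 1 to 4 and 114, 99.3, 89.7 and 105 CPM in AG636 1 to 4. Vehicle 4 reached the range of the AG636 samples while Vehicle 1 to 3 lay close together. The log2 fold change was 0.58, with an SE of 0.15 and an adjusted p of 0.0283. Without Vehicle 4 it was 0.76 (adjusted p = 0.00799). Aurka lost the call in 4 of 18 alternative fits, those without Vehicle 1, Vehicle 2, Vehicle 3 or AG636 1. Plk1 (ENSMUSG00000030867, chr7:122159439-122169873, + strand), the Polo kinase, was at 206, 215, 180 and 264 CPM in Vehicle 1 to 4 and 296, 282, 258 and 284 CPM in AG636 1 to 4. Here too Vehicle 4 overlapped with AG636, above AG636 3 alone. Its log2 fold change was 0.39, with an SE of 0.11 and an adjusted p of 0.0444. It was 0.50 (adjusted p = 0.0159) when Vehicle 4 was left out. Plk1 lost the call in 6 of 18 alternative fits, among them those without Vehicle 1, Vehicle 2 or Vehicle 3. The checkpoint kinases Bub1b and Ttk had log2 fold changes of 0.20 each, Bub1 had 0.12 and Aurkb 0.11, none of them past the threshold. The value of Aurkb was −0.05 without Vehicle 3, so its sign was set by a single sample. Of the subunits that hold Aurora B in the chromosomal passenger complex, Cdca8 (borealin, ENSMUSG00000028873, chr4:124918465-124939311, - strand) was at 236, 242, 214 and 283 CPM in Vehicle 1 to 4 and 309, 313, 297 and 295 CPM in AG636 1 to 4. Its groups did not overlap, and its log2 fold change was 0.32, with an SE of 0.09 and an adjusted p of 0.0409. Birc5 (survivin) had 0.17 and was not called.

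Among the checkpoint and anaphase-promoting genes 2 of 7 were called, both of which act at the onset of anaphase. Pttg1 (ENSMUSG00000020415, chr11:43420250-43426251, - strand), securin, was at 51.4, 49, 57.4 and 54.5 CPM in Vehicle 1 to 4 and 85.8, 69.3, 71 and 73.9 CPM in AG636 1 to 4. Its Vehicle samples lay close together, Vehicle 4 was not the highest of them, and the groups did not overlap. The means were 53.1 ± 3.64 CPM in Vehicle and 75 ± 7.47 CPM in AG636 (SD, n = 4 each), a log2 fold change of 0.50, with an SE of 0.10 and an adjusted p of 0.00978. Cdc20 (ENSMUSG00000006398, chr4:118432901-118437352, - strand), the activator of the anaphase-promoting complex, was at 148, 156, 138 and 212 CPM in Vehicle 1 to 4 and 261, 222, 223 and 242 CPM in AG636 1 to 4. The lowest AG636 sample was just above Vehicle 4. Its log2 fold change was 0.55, with an SE of 0.13 and an adjusted p of 0.0181, from 164 ± 33.1 CPM in Vehicle and 237 ± 18.5 CPM in AG636 (SD, n = 4 each). Ube2c, the ubiquitin-conjugating enzyme of the complex, had 0.43 and missed the threshold (adjusted p = 0.0648). Of the other checkpoint genes, Bub3 had 0.21 and Mad2l1 had 0.08, and Sgo1, which protects centromeric cohesin, had 0.10. Cdca3, which acts in the degradation of the mitotic inhibitor WEE1, had 0.23.

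The kinetochore genes held 4 calls among 7. Cenpf (ENSMUSG00000026605, chr1:189640606-189688086, - strand), a large protein of the outer kinetochore, had the smallest p of the 40 and was at 240, 248, 213 and 270 CPM in Vehicle 1 to 4 and 352, 341, 362 and 327 CPM in AG636 1 to 4. The highest Vehicle sample, at 270 CPM, was below the lowest AG636 sample, at 327 CPM. The means were 243 ± 23.6 CPM in Vehicle and 345 ± 14.7 CPM in AG636 (SD, n = 4 each), and the log2 fold change was 0.51, with an SE of 0.09 and an adjusted p of 0.00544. Cenpa (ENSMUSG00000029177, chr5:30666777-30674830, + strand), the histone H3 variant that marks centromeres, was at 262, 256, 228 and 283 CPM in Vehicle 1 to 4 and 539, 401, 344 and 294 CPM in AG636 1 to 4. It had the largest log2 fold change of the 40, at 0.59, with an SE of 0.16 and an adjusted p of 0.0358. Its AG636 samples spread widely, from 294 to 539 CPM, and the groups did not overlap. The NDC80 complex, which binds microtubules, consists of Ndc80, Nuf2, Spc24 and Spc25, and 2 of these 4 were called. Spc25 (ENSMUSG00000005233, chr2:69193895-69206194, - strand) was at 79.8, 80.7, 67.9 and 96.8 CPM in Vehicle 1 to 4 and 105, 113, 114 and 120 CPM in AG636 1 to 4, and Ndc80 (ENSMUSG00000024056, chr17:71496100-71526857, - strand) at 64.1, 59.8, 54.5 and 71.5 CPM in Vehicle 1 to 4 and 82.3, 85.6, 75.6 and 75.5 CPM in AG636 1 to 4. Neither overlapped between the groups, and the log2 fold change was 0.48, with an SE of 0.11 and an adjusted p of 0.0158 for Spc25, and 0.36, with an SE of 0.10 and an adjusted p of 0.0398 for Ndc80. Nuf2 had 0.19 and Spc24 0.04, the smallest value of the 40, with a sign that turned to −0.04 without Vehicle 2 and −0.01 without AG636 4. Differences between subunits were not tested. Cenpe, a kinetochore motor, had groups that did not overlap but narrowly missed the threshold, with a log2 fold change of 0.31 (adjusted p = 0.0533).

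Spindle proteins held 4 calls among 6. Nusap1 (ENSMUSG00000027306, chr2:119618298-119651244, + strand), which bundles microtubules around chromosomes, was at 236, 264, 198 and 265 CPM in Vehicle 1 to 4 and 353, 424, 341 and 319 CPM in AG636 1 to 4. The groups did not overlap and AG636 2 was the highest. The means were 241 ± 31.5 CPM in Vehicle and 359 ± 45.4 CPM in AG636 (SD, n = 4 each), a log2 fold change of 0.58, with an SE of 0.12 and an adjusted p of 0.0111. Kif4 (ENSMUSG00000034311, chrX:100625737-100727214, + strand), a chromosome-bound kinesin, was at 39.6, 47.6, 41.3 and 57.2 CPM in Vehicle 1 to 4 and 72.2, 64.3, 54.7 and 59.7 CPM in AG636 1 to 4. Its groups overlapped because Vehicle 4 exceeded AG636 3, and its log2 fold change was 0.44, with an SE of 0.13 and an adjusted p of 0.0488. Without Vehicle 4 the value was 0.56 (adjusted p = 0.0266). Kif4 lost the call in 9 of 18 alternative fits, among them those without Vehicle 1, Vehicle 2 or Vehicle 3. Tpx2, the activator of Aurora A on the spindle, and Hmmr, a spindle pole protein, were also called, at 0.30 (SE 0.09, adjusted p = 0.0489) and 0.40 (SE 0.12, adjusted p = 0.0493). Kif2c, a microtubule depolymerase, and Kif11, the motor that separates spindle poles, had 0.39 and 0.23 and were not called. Of the central spindle and cytokinesis genes only Prc1 (ENSMUSG00000038943, chr7:80294450-80316259, + strand), which bundles antiparallel microtubules between the separating chromosomes, was called. It was at 174, 193, 167 and 243 CPM in Vehicle 1 to 4 and 253, 247, 249 and 261 CPM in AG636 1 to 4. The AG636 samples lay within 247 to 261 CPM, just above Vehicle 4, and the log2 fold change was 0.39, with an SE of 0.11 and an adjusted p of 0.0405. Prc1 lost the call in 7 of 18 alternative fits, among them those without Vehicle 1, Vehicle 2 or Vehicle 3. Kif23 and Ect2, which position the cleavage furrow, had similar values of 0.43 and 0.40 with larger SEs of 0.16 and 0.14, and Kif20a and Anln had 0.25 and 0.24.

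Top2a (ENSMUSG00000020914, chr11:98992943-99024189, - strand), the topoisomerase that untangles sister chromatids, was the most abundant of the 40. A 3′ count depends little on transcript length, so CPM can be set side by side between genes. It was at 1123, 1238, 1100 and 1443 CPM in Vehicle 1 to 4 and 1462, 1454, 1318 and 1272 CPM in AG636 1 to 4. The groups overlapped, and the log2 fold change was 0.17, with an SE of 0.10 and an adjusted p of 0.28, which is not past the threshold. Mki67, the proliferation antigen that coats mitotic chromosomes, came next at 834 to 1070 CPM in Vehicle and 1000 to 1235 CPM in AG636, a log2 fold change of 0.25, with an SE of 0.10 and an adjusted p of 0.125. Neither gene was called. Of the 40 genes, 24 had a mean over 100 CPM. The plot of fold changes by role shows the order within each group of genes.

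**Figure D4:**
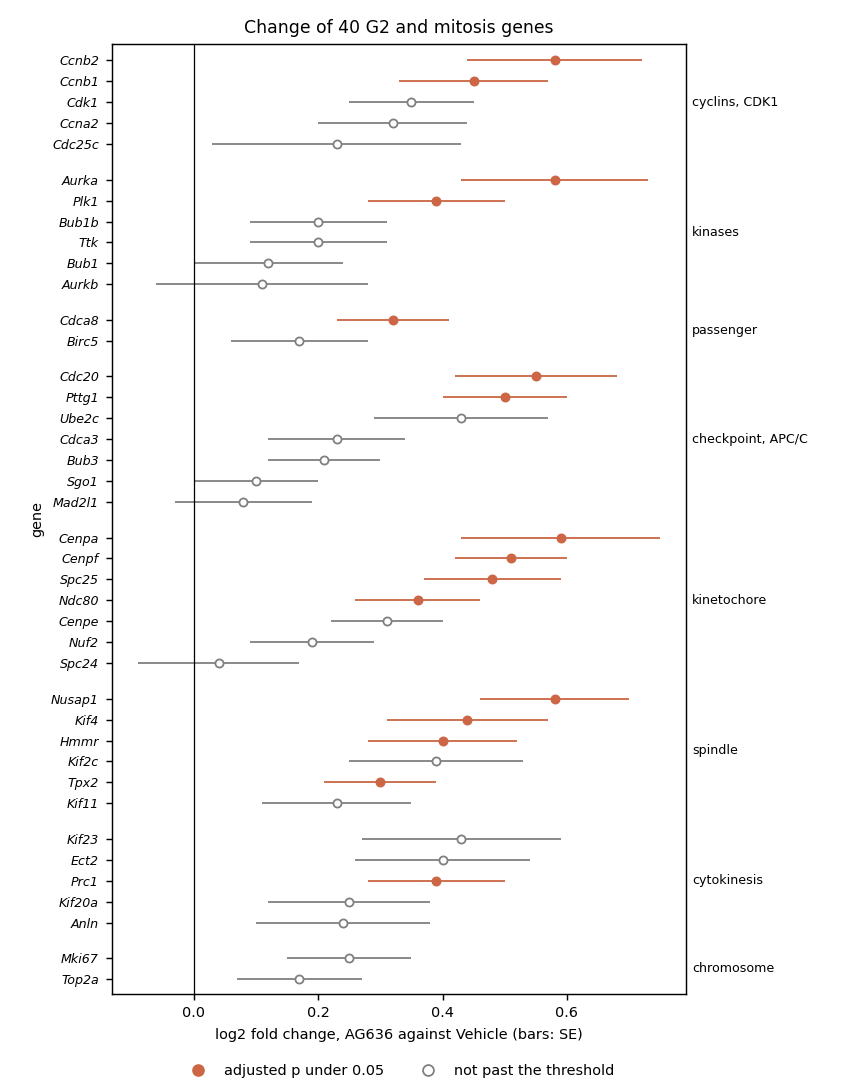
Log2 fold change of AG636 against Vehicle (horizontal axis) for the 40 genes, grouped by role, with bars for the SE of the limma-voom fit of 4 against 4 samples. Filled orange points are the 16 genes with an adjusted p under 0.05 and open grey points the 24 others. All 40 values are positive, from 0.04 for Spc24 to 0.59 for Cenpa.

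Some of the called genes share exonic bases with a gene on the other strand, and whether strand was used in counting is not stated, so reads of the partners cannot be told apart. Over all samples Nusap1 had 15635 counts and its partner Oip5 1985, Cdc20 had 10463 and Elovl1 5350, Kif4 had 2848 and Pdzd11 979, Cdca8 had 14295 and 9930104L06Rik 338, Prc1 had 11675 and Rccd1 234, and Plk1 had 12963 and Gm44985 0. A near-identical copy of the 3′ end of Cdc20, Gm7856, had 3 counts.

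To place the 40 genes within cell division, lists of other genes were taken from the same fit. These lists, like the members, were written with earlier results of these data known, and the differences between lists were not tested. Of all tested genes 5.47% were called higher and 8.49% lower. Of 39 other spindle and cytokinesis genes, 10 were called higher and 1 lower (Haus6, an augmin subunit, −0.39, named after its value was seen), with a median log2 fold change of 0.31. The smallest p-values were those of Psrc1, a microtubule-binding protein, at 0.88 (SE 0.09, adjusted p = 0.00109), and Arhgef39, a guanine nucleotide exchange factor, at 0.85 (SE 0.15, adjusted p = 0.00551). Psrc1 was at 76.6, 83, 74.1 and 77.9 CPM in Vehicle 1 to 4 and 160, 133, 132 and 149 CPM in AG636 1 to 4, so that Vehicle 4 did not stand apart in it. Without Vehicle 4, 15 of the 39 were called higher, where 3.77% of all genes tested in that fit were. The count was 4 without Vehicle 1, Vehicle 2 or Vehicle 3, where 2.36%, 2.78% and 1.99% of all genes tested were called higher. It was 5 without AG636 1 (3.65% of all genes tested), 6 with no filter (1.99%) and 19 with sample quality weights (7.63%). Of 34 other kinetochore and centromere genes only Hjurp, the chaperone that loads CENP-A, was called, at 0.41 (adjusted p = 0.0217), and the median was 0.07.

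Of 19 condensin and cohesin genes 3 were called higher, Ncaph at 0.36 (adjusted p = 0.036), Stag1 at 0.29 (adjusted p = 0.0376) and, named after its value was seen, Rad21 at 0.36, while Ncapg2 was called lower at −0.37, also named after its value was seen. Ncaph and Stag1 lost the call in 8 of 18 alternatives each, Rad21 in 6 and Ncapg2 in 14. The median of that list was 0.16. Of 17 subunits and regulators of the anaphase-promoting complex only Fzr1, its activator in late mitosis and G1, was called, at 0.53 (adjusted p = 0.0149), and the median was −0.12. None of its core subunits was called. Of 13 genes that control mitotic entry, Cdc25b was called higher at 0.49 (SE 0.09, adjusted p = 0.00757) and Cdc25a lower at −0.45 (SE 0.09, adjusted p = 0.0116), with a median of 0.02. CDC25B is known for starting mitosis and CDC25A also for the entry into S phase. The share called higher was 15.8% for condensin and cohesin, 5.88% for the anaphase-promoting complex and 7.69% for mitotic entry. Among all tested genes 5.47% were called higher and 8.49% lower, so the counts of the last 2 lists were near those shares.

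Of 13 genes of the MuvB, DREAM and FOXM1 group, which holds regulators of CHR promoters, 1 was called higher (7.69%) and 3 lower. Among all tested genes 5.47% were called higher and 8.49% lower, and the median of the list was 0.13. Rbl2, the pocket protein of DREAM, was called higher at 0.43 (SE 0.09, adjusted p = 0.0123). Tfdp1, the partner of E2F proteins, was called lower at −0.47 (SE 0.08, adjusted p = 0.00581). Also lower, and named after their values were seen, were Mybl2 (B-MYB) at −0.49 (adjusted p = 0.0488) and E2f4 at −0.46 (adjusted p = 0.0446), which lost the call in 13 and 12 of 18 alternatives. Foxm1, likewise named afterwards, was at 39, 40.3, 42.2 and 45.2 CPM in Vehicle 1 to 4 and 51.3, 48.8, 52.5 and 50.4 CPM in AG636 1 to 4. Its groups did not overlap, but its log2 fold change of 0.29 (SE 0.09, adjusted p = 0.0528) missed the threshold.

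Genes of the earlier part of the cycle had the opposite sign. Of 48 G1/S and DNA replication genes 45 had a negative log2 fold change and 13 were called lower, where 8.49% of all tested genes were. The median of the 48 was −0.29. By limma-voom, edgeR and DESeq2 0 were called higher, and 0 were higher at an unadjusted p under 0.05. In 18 of the 48 every AG636 sample was below every Vehicle sample, against 12.9% of all tested genes. The smallest p-values were those of Cdt1, which licenses replication origins, at −0.71 (SE 0.09, adjusted p = 0.00214), and Mcm5, a subunit of the replicative helicase, at −0.66 (SE 0.11, adjusted p = 0.00469). Cdt1 fell from 176, 162, 158 and 169 CPM in Vehicle 1 to 4 to 91, 96.3, 104 and 117 CPM in AG636 1 to 4. Relative to the Vehicle mean, the median of the 48 genes was −0.02, −0.01, −0.05 and 0.09 log2 units in Vehicle 1 to 4. In AG636 1 to 4 it was −0.44, −0.38, −0.32 and −0.06, so AG636 4 was near the Vehicle samples in these genes. In the 40 G2 and mitosis genes the median of AG636 4, 0.24, was above those of Vehicle 1 to 3. It was below that of Vehicle 4, 0.27. Without AG636 4 the count called lower was 22, and without Vehicle 3 it was 7. It was 8 without Vehicle 4, without AG636 1 or with library size alone as the scaling. In these 5 fits 1655, 688, 1010, 1043 and 1489 genes were called in all, against 1523. The plot of the lists sets the G2 and mitosis genes beside the others.

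**Figure D5:**
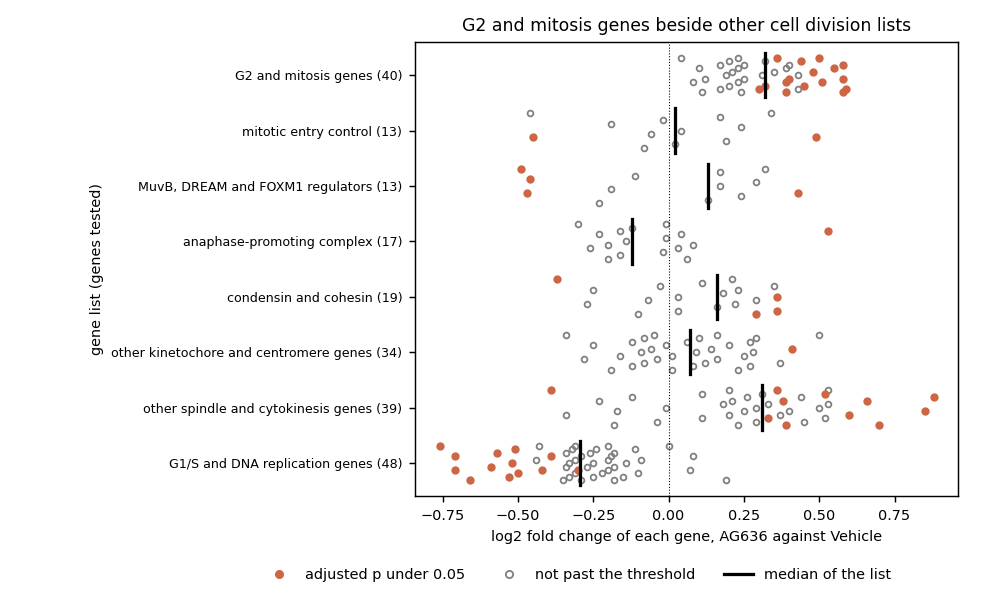
Log2 fold change of AG636 against Vehicle (horizontal axis) for each gene of the 40 G2 and mitosis genes and of 7 other lists (rows, with the number of genes tested). Filled orange points are genes with an adjusted p under 0.05, open grey points are the others, and black bars are medians. The medians are 0.32 for the 40 genes, 0.31 for other spindle and cytokinesis genes and −0.29 for G1/S and DNA replication genes.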

How the data were processed

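RNA of 4 Vehicle and 4 AG636 samples, grouped by their titles, was sequenced with a QuantSeq 3′ mRNA kit, which reads the 3′ end of transcripts. The table deposited by the authors holds whole-number read counts for each gene, not normalized. Per the study's methods and the labels, the authors trimmed reads with cutadapt, mapped them to mm10 with HISAT2 and counted them with Subread. The submitters' processing notes list cutadapt 1.9.1, HISAT2 2.0.4 and Subread 1.5.0-p3, and other versions of cutadapt and Subread appear in the methods. Whether strand was used, and how reads of several places were treated, is not given in the sources used here.

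Genes were kept by filterByExpr (minimum count 10), scaled by TMM factors and compared with voom in limma (version 3.58.1, with edgeR 4.0.16 for scaling, under R 4.3.3), group as the only term, because the study names limma. Tests were two-sided with Benjamini-Hochberg adjustment over all 10911 genes and a threshold of 0.05, and "called" means past it. CPM uses the total of the tested genes in a sample, 6092080 to 7143631 counts, adjusted by TMM factors of 0.9609 to 1.05. On that scale 1 count was worth 0.145 to 0.16 CPM. No pair of samples of a group agreed within sampling noise. Sample values are given for the 14 called members with the smallest p and the most abundant member, and up to 2 called genes with the smallest p are named per other list. Any other gene named from those lists is marked in the text as named after its values were seen. The members and lists were chosen with earlier results of these data known. Symbols were matched for 54723 of 54838 genes. Promoter windows are from RefSeq, and of 37 member windows 27 had the bases after the start in a GENCODE transcript of the gene, none of them on the wrong strand. The scripts were tested on simulated data. Alternatives were DESeq2 (1.42.0), the quasi-likelihood test of edgeR, limma-trend, sample quality weights, other scaling factors and filters, a replicate block, each sample left out and a threshold of 0.01.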

Additional observations from a re-analysis of the deposited data

Results flagged for a closer look

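Of 80 groups of 4 samples (40 genes in each treatment group, on log2 CPM), 3 had a sample whose gap to its nearest neighbour divided by the group's range was above the 95% critical value of Dixon's ratio, which is 3.75% where chance alone gives about 1 in 20. Aurka was at 6.59 log2 CPM in Vehicle 4, against 5.90 to 5.96 in the other Vehicle samples. Bub1 was at 6.00 log2 CPM in Vehicle 4, against 5.52 to 5.57. Cdc25c was at 4.20 log2 CPM in AG636 1, against 3.58 to 3.65 in the other AG636 samples.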

How the results depend on the processing

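The number of G2 and mitosis genes called higher was 16 in the limma-voom fit and 14 to 23 under other tests, scalings and filters, and none was called lower under any alternative. Leaving out 1 sample gave 3 to 23 such genes and 688 to 1706 genes called in all, against 1523. These fits have fewer samples. The lowest values were without Vehicle 1 and Vehicle 3, and the count also fell by over 1.5 times without Vehicle 2, AG636 1 and AG636 2. At an adjusted p under 0.01 the counts were 2 and 435. The value was positive in every alternative for 38 of 40 genes. The range over the fits that leave out a sample was −0.05 to 0.25 for Aurkb and −0.04 to 0.18 for Spc24, with −0.01 for Spc24 without AG636 4. Library size alone moved the median of all genes to 0.064 and gave 19 members called higher.

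The groups share replicate numbers, but the deviations of same-numbered samples correlated at −0.14, 0.014, 0.203 and 0.135, so the numbers were not taken to pair the samples, and AG636 1 correlated best with Vehicle 4 (0.253). With the replicate number as a block, 11 of the 40 genes and 1446 genes in all were called. Cdca8, Kif4, Tpx2, Ndc80 and Hmmr were not past the threshold in that fit.

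Depth was at least 66 counts in each sample for each of the 40 genes, and 4 samples a group set the spread that the tests rest on.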
